A study of Homo sapiens with 9 samples.

Results

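The 42 genes described here encode the proteins that make up the matrix around cells, the enzymes that modify and crosslink it, and the integrins that bind it. They were chosen by gene family, with earlier results of these data known, and are not the whole of these families. Further genes of the families are described in separate lists below. The 42 were matched by Ensembl identifier to the count table, which holds 24344 genes, and all were found. The set holds 13 collagen chains, 6 laminin chains, 3 linkers and proteoglycans of the basement membrane (NID1, HSPG2 and AGRN), 5 interstitial and matricellular proteins, 3 lysyl oxidases, 3 lysyl hydroxylases and 9 integrin subunits. Of these, 40 passed the filter on low counts and were tested. NID1, the linker nidogen, had 0 to 7 counts per library and BGN, the proteoglycan biglycan, had 0 to 1, so differences in these genes were not detectable at this depth.

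The human breast adenocarcinoma line MDA-MB-231, an established cell line, was treated for 48 h with either CKI, Kushen injection or Baituling injection, and its RNA was sequenced. CKI (Compound Kushen Injection) is a clinical preparation made from the herbs Kushen and Baituling, and each single injection holds the extract of one herb. CKI was used at 2 mg/ml and the single injections in the same ratio as CKI, so that the contribution of each herb to CKI could be compared. Each treatment had 3 libraries, and all 9 came from this single cell line in serum-containing medium. The libraries are labelled as biological replicates without a statement of separate cultures, so p-values measure the spread between these libraries, which may be technical. Untreated libraries were not analysed here, and each difference below is between 2 injections. The 3 contrasts share libraries with one another and are not independent.

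Basement membranes are sheets in which a laminin network and a collagen IV network are linked by nidogen, perlecan and agrin, whereas fibrillar collagens and fibronectin build the interstitial matrix. Lysyl hydroxylases modify collagen inside the cell, and lysyl oxidases crosslink it outside. Integrins are heterodimers of an alpha and a beta subunit that tie this matrix to the cytoskeleton, and in breast carcinoma cells both groups of genes are studied for their roles in adhesion and invasion.

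The total count per library was 20144628 to 23782071. Expression is given as CPM, the read count after scaling of library sizes to a common size by the TMM method. Scaling by library totals moved the median log2 fold change over all genes from 0.01 to 0.08 (CKI against Kushen), from 0.03 to 0.32 (CKI against Baituling) and from 0.02 to 0.23 (Kushen against Baituling), and the values given here are on the TMM scale. The 5 mesenchymal and basal markers that define MDA-MB-231 (VIM, CD44, AXL, MSN and CAV1) were all expressed, while the luminal receptors ESR1 and PGR had at most 3 and 4 counts. Of the other luminal markers, GATA3 had 196 to 453 counts per library, EPCAM 162 to 280, CDH1 11 to 51 and FOXA1 0 to 23. The summed level of the 5 markers lay between 2365 and 2475 CPM under CKI, 3208 and 3216 under Kushen, and 5811 and 5897 under Baituling. Of the other cell types, the markers DCN of fibroblasts, CDH5 of endothelium and CD3E of T cells had at most 3, 3 and 4 counts per library, PTPRC of leukocytes had at most 9, and MS4A1 of B cells had 0 in every library. Other markers of the same lists were expressed. COL1A1 of fibroblasts had 285 to 963 counts per library and LUM 5 to 187, KDR of endothelium had 177 to 385, and CD14 of leukocytes had 116 to 215. The summed level of 6 fibroblast markers was 42.9 to 47.7 CPM under CKI, 28 to 31.4 under Kushen and 19.1 to 22.9 under Baituling, while that of 6 luminal markers was 17.4 to 19, 17 to 19.6 and 36.3 to 40.8 CPM in the same order. For 3 endothelial markers the sums were 13.2 to 15.8, 14.6 to 15 and 10.1 to 11.1 CPM, and for 4 leukocyte markers 7.49 to 8.91, 4.91 to 6.97 and 9.33 to 11.4 CPM. The part of these markers in the results below was not tested.

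Summed over the 42 genes, expression was lowest in CKI. The sum was 11438, 11443 and 11466 CPM in the 3 CKI libraries, 14237, 15242 and 15603 CPM in Kushen, and 15759, 16298 and 15980 CPM in Baituling, so the 3 groups did not overlap. As CPM of the unscaled library totals the sums were 12564, 12439 and 12324 in CKI, 14894, 15622 and 15972 in Kushen, and 13824, 14614 and 14370 in Baituling, so that CKI was still lowest but Kushen lay above Baituling. In bulk RNA, fewer expressing cells and less RNA per cell cannot be told apart.

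Per length of exon, which allows genes to be compared with each other, ITGA3 and LAMB3 stood first. The level of ITGA3, the alpha 3 subunit that binds laminin, was 230 RPKM (CPM per kb of exon) in CKI, 400 in Kushen and 271 in Baituling. LAMB3, a beta chain of epithelial laminin, had a level of 248, 245 and 278 RPKM in the same order. LOXL2 and ITGB1 followed, with levels of 120 and 100 RPKM in Kushen. At the other end, LAMA4, SPARC and COL5A2 had levels of 0.0905 to 0.618 RPKM in the 3 groups. The choice of gene length moved these levels: with the length of the canonical transcript in place of all exons, the level of ITGB1 in Kushen was 391 RPKM and that of LAMB3 was 283.

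**Figure D1:**
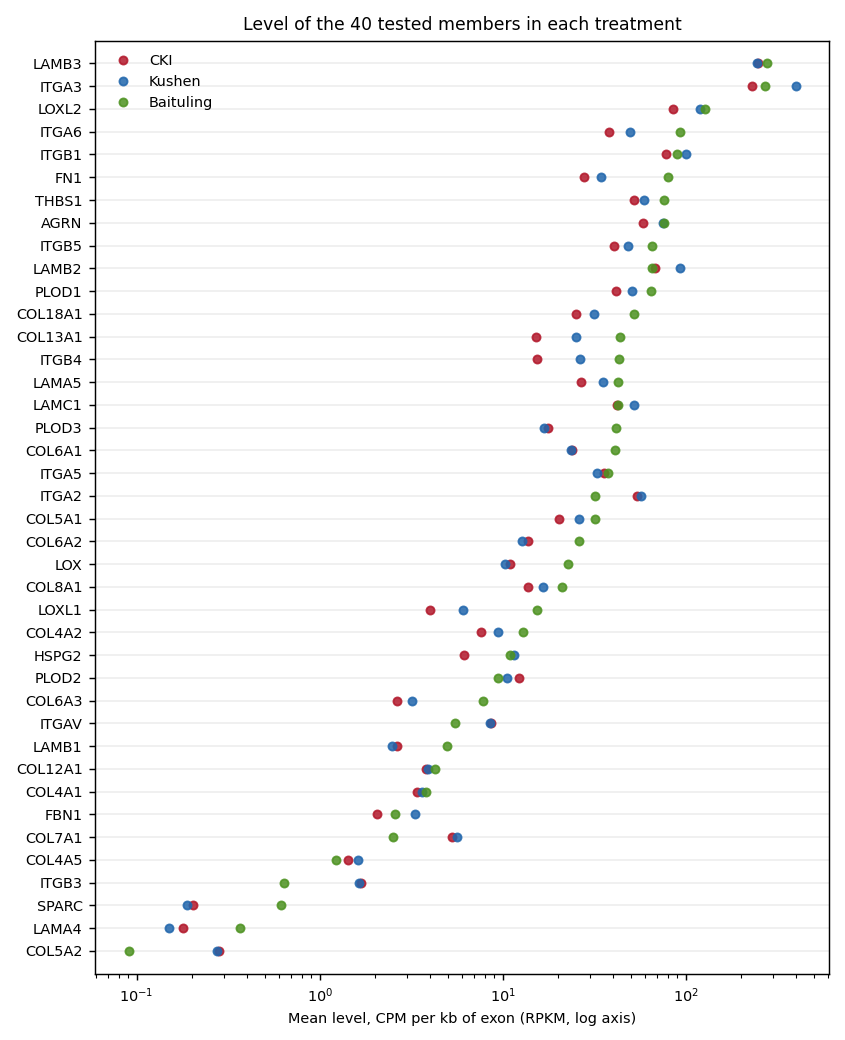
Mean level of the 40 tested genes in each treatment in CPM per kb of exon (RPKM, log axis), 1 point per treatment (mean of 3 libraries), ordered by the level in Baituling. LAMB3 and ITGA3 stand at the top, and LAMA4, SPARC and COL5A2 at the bottom.

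Calls required an adjusted p (edgeR quasi-likelihood test, Benjamini-Hochberg over the 14195 genes tested) under 0.05 together with a log2 fold change above 1 or below -1. Fold changes are those of the treatment named first over the other. Between CKI and Kushen injection, which lacks the Baituling extract, the matrix and integrin genes differed by less than this fold. None of the 40 tested members was called, against 1.9% of all genes tested (1.7% higher and 0.197% lower), and the count was also 0 by DESeq2 and by a test against the fold threshold itself (glmTreat). Of all 14195 genes, DESeq2 called 226 and glmTreat 42 in this contrast. Without the fold threshold, 25 of the 40 had an adjusted p under 0.05 by the edgeR test, compared with 39.8% of all genes. Of these, 2 were higher in CKI (PLOD2 and ITGA5), where 19.6% of all genes were, and 23 were lower in CKI, where 20.2% of all genes were. With library totals the split was 6 higher and 22 lower, and the shares of all genes were not counted on that scale. The median log2 fold change was -0.26 over the members and 0.01 over all genes on the TMM scale, and -0.18 and 0.08 with library totals.

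Against Baituling, both CKI and Kushen gave called genes in collagens, laminins, matrix proteins, enzymes and integrins. Between CKI and Baituling 14 of 40 members were called, compared with 19.1% of all genes. The 3 that were higher in CKI were COL5A2, ITGB3 and COL7A1, against 11.2% of all genes. COL5A2 passed the filter on low counts only through CKI and Kushen, where it is high, so its call is a description. The 11 that were lower were LOXL1, SPARC, COL6A3, COL13A1, FN1, ITGB4, ITGA6, PLOD3, COL18A1, LOX and LAMA4, against 7.91% of all genes. With library totals 4 were called higher and 7 lower, where 3157 of the 14195 genes tested were called, 2527 of them higher (2715 and 1592 on the TMM scale). An adjusted p under 0.05 was found for 37 members, 7 higher and 30 lower in CKI, compared with 76.1% of all genes, 39.1% higher and 37% lower. With library totals these were 12 higher and 23 lower, and the shares of all genes were not counted on that scale. The median log2 fold change was -0.63 over the members and 0.03 over all genes on the TMM scale, and -0.34 and 0.32 with library totals.

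Between Kushen and Baituling 12 of 40 members were called, compared with 15.2% of all genes. COL5A2, ITGB3 and COL7A1 were again the 3 that were higher, against 8.5% of all genes. The call of COL5A2 is again a description, because of the filter. The 9 that were lower in Kushen were SPARC, LOXL1, COL6A3, PLOD3, LAMA4, FN1, LOX, COL6A2 and LAMB1, against 6.73% of all genes. With library totals 4 were called higher and 6 lower, where 2431 of the 14195 genes tested were called, 1813 of them higher (2162 and 1207 on the TMM scale). An adjusted p under 0.05 was found for 36 members, 12 higher and 24 lower in Kushen, compared with 71.6% of all genes, 35.6% higher and 36.1% lower. With library totals these were 16 higher and 19 lower, and the shares of all genes were not counted on that scale. The median log2 fold change was -0.29 over the members and 0.02 over all genes on the TMM scale, and -0.08 and 0.23 with library totals.

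**Figure D2:**
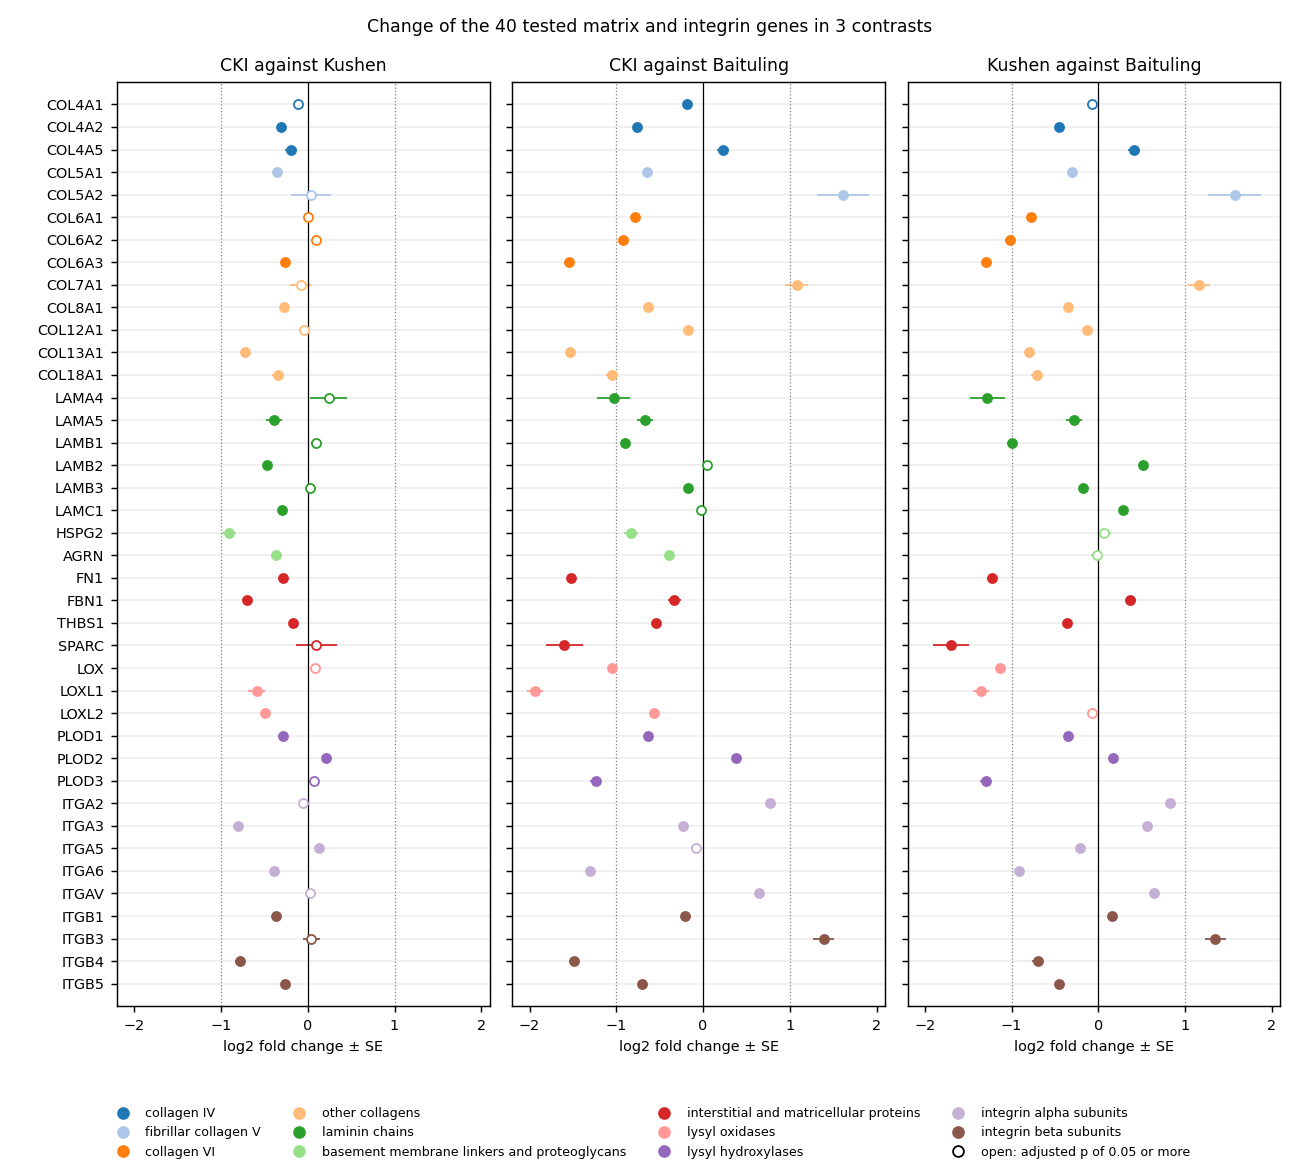
Log2 fold change with its standard error (edgeR, 3 libraries per group) of the 40 tested genes in the 3 contrasts, coloured by role. Open points have an adjusted p of 0.05 or more, and dotted lines mark log2 fold changes of -1 and 1. In CKI against Kushen every point lies between -0.91 and 0.24, while in CKI against Baituling the points reach from -1.94 (LOXL1) to 1.61 (COL5A2). COL5A2 passed the filter on low counts only through CKI and Kushen, where it is high.

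Collagen IV is the network-forming collagen of basement membranes. Its 2 most widespread chains, COL4A1 and COL4A2, assemble into the same triple helix, and their genes lie head to head on chromosome 13. The 126 bases that separate their RefSeq start sites (GRCh38.p14, chr13:110307158-110307283, plus strand) are shown because both genes are read from this stretch in opposite directions. Capitals mark CCAAT and GGGCGG, the only matches among 5 motifs searched on both strands, namely the CCAAT box, the GC box GGGCGG, the cyclic AMP response element TGACGTCA, the AP-1 element TGANTCA and the TATA box TATAAA.
COL4A1-COL4A2: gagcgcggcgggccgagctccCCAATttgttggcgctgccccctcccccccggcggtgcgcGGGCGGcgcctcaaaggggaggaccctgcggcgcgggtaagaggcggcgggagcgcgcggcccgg

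COL4A2 differed among the 3 treatments, and COL4A1 did so by much less. COL4A2 was measured at 146, 144 and 151 CPM in CKI, 172, 186 and 189 CPM in Kushen, and 236, 252 and 259 CPM in Baituling. No group overlapped another. COL4A2 had a log2 fold change of -0.31 ± 0.05 (SE) in CKI against Kushen (edgeR adjusted p = 3.93e-05), -0.76 ± 0.05 for CKI over Baituling (1.79e-11) and -0.45 ± 0.05 for Kushen over Baituling (5.08e-08). COL4A1 was measured at 49.9, 49.2 and 49.4 CPM in CKI, 52.7, 52.1 and 55.4 CPM in Kushen, and 52.6, 59.7 and 56.4 CPM in Baituling. CKI lay lowest, and Kushen and Baituling overlapped. COL4A1 had a log2 fold change of -0.18 ± 0.05 for CKI over Baituling (edgeR adjusted p = 0.00486), which did not pass with the upper quartile (-0.11, adjusted p = 0.0697) and had the opposite sign, 0.11 (0.0909), when library totals were used. The other contrasts did not pass (adjusted p = 0.115 and 0.222). COL4A5, an X-linked chain of other collagen IV trimers, was measured at 17.7, 17 and 16.2 CPM in CKI, 19.5, 18.7 and 19.6 CPM in Kushen and 14.4, 15 and 14 CPM in Baituling, so Kushen was highest and Baituling lowest. It was higher in Kushen than in Baituling by 0.41 ± 0.07 log2 units (edgeR adjusted p = 4.11e-05) and higher in CKI than in Baituling by 0.23 ± 0.07 (0.00814). In CKI against Kushen its adjusted p was 0.0372 at a log2 fold change of -0.19 ± 0.07, and it rose to 0.129 without CKI library 3, 0.083 without CKI library 2, 0.0806 without Kushen library 1 and 0.0697 without Kushen library 3. It was also 0.228 with library totals, 0.0565 with no filter, 0.0538 with the replicate block, 0.0594 with a correction for gene length and GC content, 0.0748 with both, 0.053 in the fit of these groups alone and 0.0671 by DESeq2.

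Collagen V, a fibrillar collagen that starts the assembly of collagen fibrils, was represented by chains that moved in opposite directions. COL5A1 was measured at 232, 227 and 223 CPM in CKI, 276, 289 and 306 CPM in Kushen, and 347, 373 and 352 CPM in Baituling. The 3 groups did not overlap, with CKI lowest. COL5A1 had a log2 fold change of -0.35 ± 0.05 in CKI against Kushen (edgeR adjusted p = 5.68e-06), -0.65 ± 0.05 for CKI over Baituling (9.15e-11) and -0.3 ± 0.04 for Kushen over Baituling (6.52e-06), the last of which did not pass with library totals (-0.09, adjusted p = 0.0704). COL5A2 was far less abundant, with 42, 49 and 64 counts in CKI, 40, 50 and 53 in Kushen and 17, 6 and 15 in Baituling, or 1.65, 1.97 and 2.53 CPM, 1.61, 2.05 and 2.35 CPM, and 0.829, 0.329 and 0.828 CPM. Every Baituling library was below every CKI and Kushen library, and CKI and Kushen overlapped. COL5A2 was called higher in CKI than in Baituling (log2 fold change 1.61 ± 0.3, edgeR adjusted p = 8.31e-05) and higher in Kushen than in Baituling (1.57 ± 0.31, 0.000134). Between CKI and Kushen its log2 fold change was 0.04 ± 0.23 (adjusted p = 0.916). COL5A2 passed the filter on low counts only through CKI and Kushen, where it is high, and it drops out under the filter of at least 10 counts in every library. Its tests against Baituling are therefore a description.

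The 3 chains of collagen VI, a beaded-filament collagen of the pericellular matrix, were all lower in CKI and in Kushen than in Baituling. Their summed level was 262 to 264 CPM in CKI, 249 to 289 CPM in Kushen and 526 to 536 CPM in Baituling. COL6A3 was measured at 57.6, 58.1 and 56.3 CPM in CKI, 66.6, 67.7 and 71.1 CPM in Kushen, and 155, 172 and 177 CPM in Baituling. Its groups did not overlap, and Baituling stood far above both others. COL6A3 was called lower in CKI than in Baituling (log2 fold change -1.55 ± 0.05, edgeR adjusted p = 1.3e-15) and in Kushen than in Baituling (-1.3 ± 0.05, 2.47e-14), and its difference was smaller in CKI against Kushen (-0.26 ± 0.05, 0.000749). COL6A2 was measured at 75.4, 70.7 and 74.5 CPM in CKI, 61.9, 69 and 74.7 CPM in Kushen, and 145, 133 and 138 CPM in Baituling. CKI and Kushen overlapped, and both lay below Baituling. COL6A2 had a log2 fold change of -1.02 ± 0.06 in Kushen against Baituling (edgeR adjusted p = 6.06e-12), a call close to the fold threshold that was lost without Kushen library 1 (-0.95) and without Baituling library 1 (-0.98). The call was also lost with library totals (-0.81), with the upper quartile (-0.95), with at least 10 counts in every library (-0.99) and with the length and GC correction (-0.81). In CKI against Baituling the difference was -0.92 ± 0.06 (adjusted p = 1.92e-11), and in CKI against Kushen 0.1 ± 0.06 (0.172), which passed with library totals (0.18, adjusted p = 0.0129), with the length and GC correction (0.14, 0.00798) and without Kushen library 3 (0.16, 0.0387). COL6A1 was measured at 129, 135 and 131 CPM in CKI, 121, 130 and 143 CPM in Kushen, and 226, 231 and 221 CPM in Baituling. It was lower than in Baituling by a log2 fold change of -0.78 ± 0.05 in CKI (edgeR adjusted p = 4.22e-11) and -0.78 ± 0.05 in Kushen (5.58e-11), and CKI and Kushen differed by 0 ± 0.05 (0.962).

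The 250 bases before the start of COL6A3 (GRCh38.p14, chr2:237414165-237414414, minus strand, RefSeq) are shown because this chain had the largest fold among the collagen VI chains. None of the 5 motifs was found in them, so there are no capitals.
COL6A3: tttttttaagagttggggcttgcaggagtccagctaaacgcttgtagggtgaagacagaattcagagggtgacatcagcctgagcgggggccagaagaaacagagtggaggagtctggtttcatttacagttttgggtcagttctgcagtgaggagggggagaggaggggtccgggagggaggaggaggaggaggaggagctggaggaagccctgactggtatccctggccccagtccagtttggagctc

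Among the other collagens, COL13A1, COL18A1 and COL8A1 were lower in CKI than in Kushen and lower in Kushen than in Baituling, while COL7A1 was lowest in Baituling. COL13A1, a membrane-spanning collagen, was measured at 175, 173 and 175 CPM in CKI, 282, 289 and 293 CPM in Kushen, and 505, 499 and 506 CPM in Baituling. The 3 groups were well apart, and the libraries of a group lay within a few percent of each other. COL13A1 had a log2 fold change of -0.72 ± 0.04 in CKI against Kushen (edgeR adjusted p = 6.83e-11), -1.53 ± 0.04 for CKI over Baituling (2.86e-17) and -0.8 ± 0.04 for Kushen over Baituling (3.61e-13). COL18A1, a basement membrane collagen and the source of endostatin, was measured at 207, 216 and 213 CPM in CKI, 229, 273 and 303 CPM in Kushen, and 450, 443 and 428 CPM in Baituling. The groups did not overlap, although the Kushen libraries were widely spread. COL18A1 was called in CKI against Baituling (log2 fold change -1.05 ± 0.07, edgeR adjusted p = 2.47e-11), but it lost the call with library totals (-0.77), with the upper quartile (-0.98) and with a correction for gene length and GC content (-0.82). It differed by -0.34 ± 0.07 in CKI against Kushen (edgeR adjusted p = 0.000485) and by -0.71 ± 0.07 for Kushen over Baituling (9.64e-09).

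COL7A1 forms the anchoring fibrils that fasten basement membranes to the tissue below. COL7A1 was measured at 66.4, 64.3 and 46.1 CPM in CKI, 73, 47.6 and 66.3 CPM in Kushen, and 29, 28.1 and 26.3 CPM in Baituling. Every CKI and Kushen library was above every Baituling library, and 1 library of each stood below its partners. The log2 fold change was 1.08 ± 0.13 for CKI over Baituling (edgeR adjusted p = 5.23e-07), 0.99 without CKI library 1, and 1.16 ± 0.13 for Kushen over Baituling (2.3e-07). Between CKI and Kushen it was -0.08 ± 0.12 (0.633). COL12A1, which decorates collagen fibrils, was measured at 73.4, 71 and 71.4 CPM in CKI, 76.4, 72.2 and 73.1 CPM in Kushen, and 78.1, 83.6 and 81.1 CPM in Baituling, the smallest range among these chains. CKI and Kushen overlapped, and Baituling was above both. It differed by -0.17 ± 0.05 for CKI over Baituling (edgeR adjusted p = 0.00263), which did not pass with the upper quartile (-0.1, adjusted p = 0.0661) and turned to 0.12 with library totals. For Kushen over Baituling it was -0.13 ± 0.05 (edgeR adjusted p = 0.0167), but it did not pass with library totals (0.08, 0.145), the upper quartile (-0.06, 0.26), at least 10 counts in every library (-0.1, 0.0625) or the fit of these groups alone (-0.11, 0.0623), nor without Kushen library 2 (0.0615), Kushen library 3 (0.0662) or Baituling library 2 (0.0729). COL8A1, a short-chain network collagen, was between 126 and 131 CPM in CKI, 155 and 156 CPM in Kushen and 191 and 204 CPM in Baituling, and passed the adjusted p in all 3 contrasts.

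**Figure D3:**
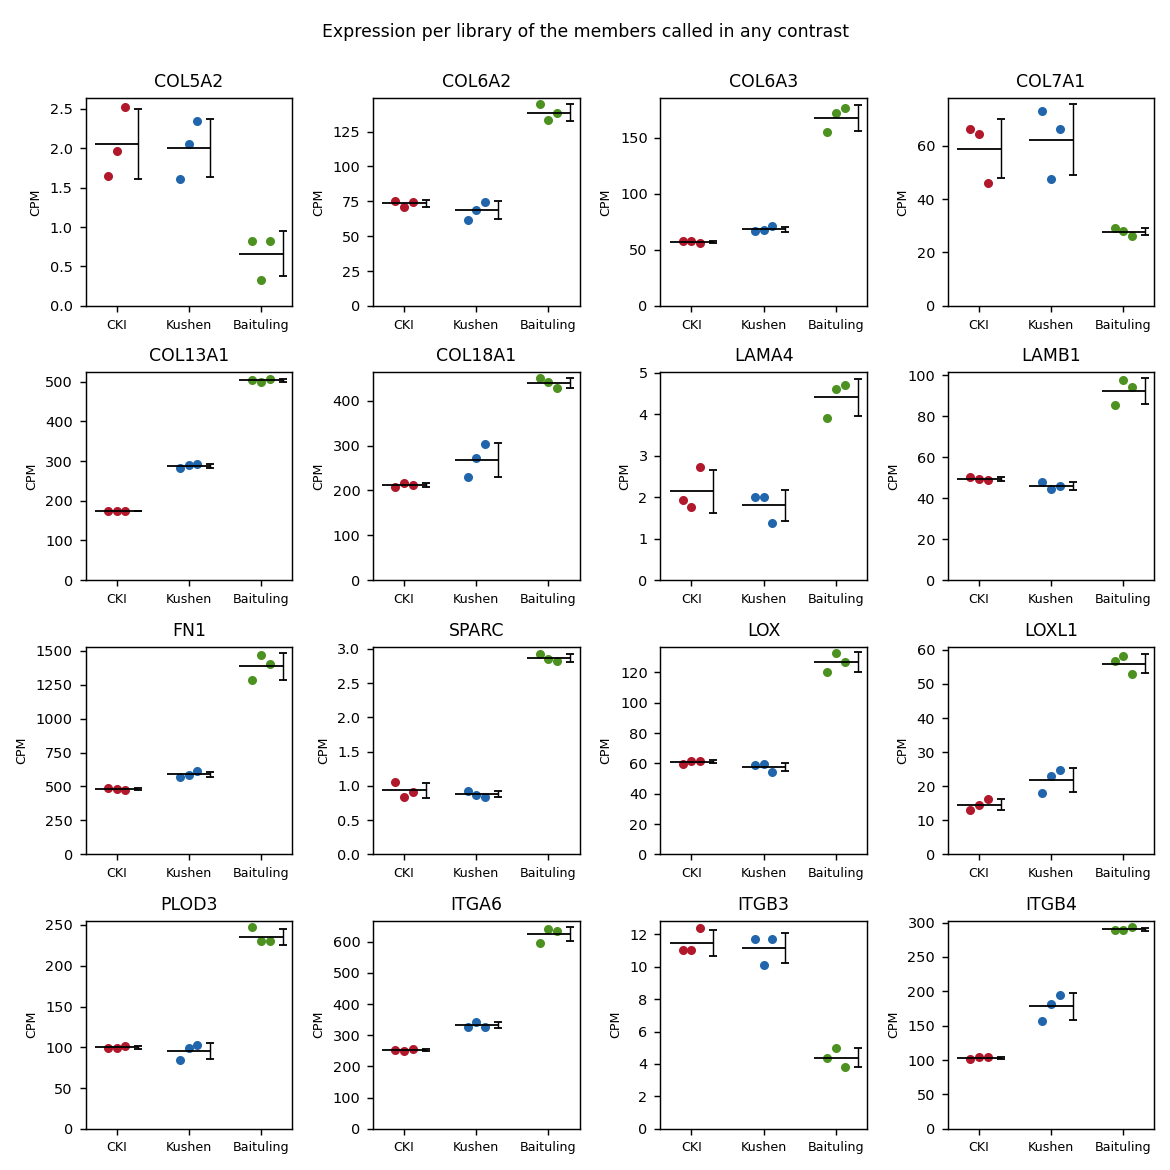
CPM in each of the 9 libraries (points) of the 16 genes called in at least 1 contrast, with the mean (line) and SD (bar) of each treatment, n = 3. COL5A2, COL7A1 and ITGB3 were lowest in the Baituling libraries, and the other 13 were highest there.

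Laminins are trimers of an alpha, a beta and a gamma chain. The beta chains behaved differently from each other: LAMB1 was highest in Baituling, LAMB2 in Kushen, and LAMB3 was highest in Baituling by a small margin whose direction turned with library totals. LAMB1, the most widespread beta chain, was measured at 50.4, 49.2 and 48.8 CPM in CKI, 47.9, 44.4 and 45.8 CPM in Kushen, and 85.5, 97.8 and 94.2 CPM in Baituling. CKI lay slightly above Kushen without overlap, and Baituling far above both. LAMB1 had a log2 fold change of -0.9 ± 0.05 for CKI over Baituling (edgeR adjusted p = 9.43e-12) and -1 ± 0.05 for Kushen over Baituling (3.06e-12), where the call rested on the threshold: it was lost without Kushen library 2 or 3 (-0.98 and -0.99) and without Baituling library 2 or 3 (-0.97 and -0.99). That call was also lost with library totals (-0.79), with the upper quartile (-0.94), with at least 10 counts in every library (-0.97) and in the fit of these groups alone (-0.99). Between CKI and Kushen it was 0.1 ± 0.06 (0.154), which passed with library totals (0.18, adjusted p = 0.0233) and with the length and GC correction (0.13, 0.0277). LAMB2 was measured at 467, 469 and 454 CPM in CKI, 616, 634 and 669 CPM in Kushen, and 451, 451 and 441 CPM in Baituling, so Kushen stood alone above both others. It was lower in CKI than in Kushen (log2 fold change -0.47 ± 0.04, edgeR adjusted p = 4.81e-08) and higher in Kushen than in Baituling (0.51 ± 0.04, 8.83e-10), while CKI and Baituling differed by 0.05 ± 0.04 (0.283). The CKI and Baituling libraries of LAMB2 did not overlap, and CKI was higher past the adjusted p with library totals (0.34, 7.06e-08), the upper quartile (0.12, 0.00856), at least 10 counts in every library (0.09, 0.0441) and the length and GC correction (0.17, 6.28e-05). LAMB3 was between 1059 and 1180 CPM in CKI and Kushen and between 1255 and 1313 CPM in Baituling, a log2 difference of -0.17 ± 0.04 in CKI (edgeR adjusted p = 0.00208) and -0.18 ± 0.04 in Kushen (0.00104). Both directions turned with library totals, to 0.12 and 0.03, and neither difference passed with the length and GC correction (-0.04 and -0.05, adjusted p = 0.335 and 0.213).

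LAMC1, the gamma chain shared by most laminins, was measured at 359, 350 and 356 CPM in CKI, 422, 452 and 441 CPM in Kushen, and 340, 380 and 360 CPM in Baituling. Kushen was above both others, which overlapped. LAMC1 had a log2 fold change of -0.3 ± 0.04 in CKI against Kushen (edgeR adjusted p = 2.6e-05) and 0.28 ± 0.04 in Kushen against Baituling (1.25e-05), and -0.02 ± 0.04 for CKI over Baituling (0.681), where library totals gave 0.27 (1.57e-05). LAMA4, an alpha chain typical of vessels and mesenchyme, was scarce, with 49, 44 and 69 counts in CKI, 50, 49 and 31 in Kushen and 80, 84 and 85 in Baituling, or 1.92, 1.77 and 2.73 CPM, 2.01, 2.01 and 1.38 CPM, and 3.9, 4.61 and 4.69 CPM. Baituling was above both others, which overlapped. LAMA4 was called lower in Kushen than in Baituling (log2 fold change -1.28 ± 0.2, edgeR adjusted p = 8.67e-06) and in CKI than in Baituling (-1.03 ± 0.19, 5.86e-05), the latter call being lost without CKI library 1 (-0.96), CKI library 2 (-0.92) or Baituling library 3 (-0.99), and with library totals (-0.75), the upper quartile (-0.96) or at least 10 counts in every library (-0.99). Between CKI and Kushen LAMA4 differed by 0.24 ± 0.21 (edgeR adjusted p = 0.381). LAMA5, the alpha chain of most adult basement membranes, was widely spread within groups, at 318 to 433 CPM in CKI, 436 to 583 CPM in Kushen and 563 to 644 CPM in Baituling. It was lower in CKI than in Kushen (-0.39 ± 0.09, edgeR adjusted p = 0.00254) and in CKI than in Baituling (-0.67 ± 0.09, 2.41e-06). Kushen and Baituling overlapped, at a log2 fold change of -0.28 ± 0.09 (edgeR adjusted p = 0.0118) that did not pass with library totals (-0.07, 0.512), by DESeq2 (-0.28, 0.082), without Kushen library 2 (-0.19, 0.0869) or without Baituling library 3 (-0.24, 0.0525).

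HSPG2 (perlecan) and AGRN (agrin), heparan sulfate proteoglycans that join the networks of the basement membrane, were both lowest in CKI. HSPG2 was measured at 124, 108 and 99.9 CPM in CKI, 193, 213 and 217 CPM in Kushen, and 166, 212 and 216 CPM in Baituling. Kushen and Baituling overlapped, and every CKI library was below both. Its log2 fold change of -0.91 ± 0.08 in CKI against Kushen (edgeR adjusted p = 9.28e-08) had the largest size among the members in that contrast. In CKI against Baituling it was -0.83 ± 0.08 (2.35e-08), and in Kushen against Baituling 0.07 ± 0.08 (0.429), or 0.28 (0.00509) with library totals. AGRN was measured at 650, 637 and 586 CPM in CKI, 719, 799 and 905 CPM in Kushen, and 795, 824 and 834 CPM in Baituling. Again CKI was below both, and the others overlapped. AGRN had a log2 fold change of -0.37 ± 0.06 in CKI against Kushen (edgeR adjusted p = 9e-05) and -0.39 ± 0.06 for CKI over Baituling (1.03e-05), the latter not passing with library totals (-0.1, adjusted p = 0.113). Between Kushen and Baituling it was -0.02 ± 0.06 (0.792), a direction that turned to 0.19 (0.0059) with library totals and to 0.13 (0.00267) with the length and GC correction.

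FN1 encodes fibronectin, the matrix glycoprotein that integrin alpha 5 beta 1 binds and assembles into fibrils, and lies at chr2:216225163-216300796 on the minus strand of hg19. FN1 was measured at 488, 479 and 476 CPM in CKI, 572, 584 and 612 CPM in Kushen, and 1280, 1471 and 1398 CPM in Baituling. Baituling stood above the others, and CKI was below Kushen without overlap. FN1 was called lower in CKI than in Baituling (log2 fold change -1.52 ± 0.05, edgeR adjusted p = 6.01e-16) and in Kushen than in Baituling (-1.23 ± 0.05, 1.95e-14), and the difference between CKI and Kushen was -0.29 ± 0.05 (7.22e-05). The 250 bases before its RefSeq start (GRCh38.p14, chr2:215436069-215436318, minus strand) are shown as the upstream stretch of the called gene with the highest CPM, with matches to the 5 motifs in capitals. They hold TGACGTCA, CCAAT and 6 overlapping or separate copies of GGGCGG.
FN1: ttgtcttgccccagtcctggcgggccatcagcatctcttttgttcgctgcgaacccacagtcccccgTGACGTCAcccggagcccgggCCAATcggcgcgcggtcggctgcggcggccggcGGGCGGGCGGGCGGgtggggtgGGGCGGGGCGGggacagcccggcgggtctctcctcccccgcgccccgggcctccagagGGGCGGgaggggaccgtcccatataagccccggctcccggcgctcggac

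RefSeq start windows were found for 34 of the 42 members, 45 windows in all, each reaching from 250 bases before to just past a start. FN1 was the only member with TGACGTCA, in 2.22% of member windows and 1.85% of all 35116 windows. GGGCGG was found in 73.3% of member windows and 45.0% of all, CCAAT in 22.2% and 34.6%, TATAAA in 13.3% and 11.5%, and TGANTCA in 4.44% and 7.71%. These are letter matches on either strand, given as a description.

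The other interstitial and matricellular genes differed from FN1 and from each other. FBN1, the microfibril protein fibrillin 1, was measured at 36.7, 36.8 and 40.2 CPM in CKI, 61.4, 62.5 and 60.9 CPM in Kushen, and 43.8, 53.1 and 46.3 CPM in Baituling. Kushen was highest and CKI lowest, with no overlap. FBN1 had a log2 fold change of -0.7 ± 0.06 in CKI against Kushen (edgeR adjusted p = 7.31e-08), -0.33 ± 0.07 for CKI over Baituling (0.000135) and 0.37 ± 0.06 for Kushen over Baituling (3.01e-05). The difference between CKI and Baituling fell to -0.04 (adjusted p = 0.549) with library totals. SPARC, a collagen-binding matricellular protein, was scarce, with 27, 21 and 23 counts in CKI, 23, 21 and 19 in Kushen and 60, 52 and 51 in Baituling, or 1.06, 0.846 and 0.908 CPM, 0.925, 0.862 and 0.843 CPM, and 2.93, 2.85 and 2.82 CPM. Baituling was above both others, which overlapped. SPARC was called lower in CKI than in Baituling (-1.6 ± 0.21, edgeR adjusted p = 7.57e-07) and in Kushen than in Baituling (-1.7 ± 0.21, 5.54e-07), and differed by 0.1 ± 0.24 between CKI and Kushen (0.784). THBS1, the matricellular protein thrombospondin 1, was between 476 and 481 CPM in CKI, 536 and 547 CPM in Kushen and 673 and 723 CPM in Baituling, and passed the adjusted p in all 3 contrasts.

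Lysyl oxidases start the crosslinking of collagen and elastin outside the cell. LOXL1, whose product is best known for elastin crosslinking, had the largest log2 fold change of the members. LOXL1 was measured at 13.1, 14.4 and 16.2 CPM in CKI, 18, 23 and 24.8 CPM in Kushen, and 56.7, 58.2 and 52.8 CPM in Baituling. The 3 groups did not overlap. LOXL1 had a log2 fold change of -1.94 ± 0.09 for CKI over Baituling (edgeR adjusted p = 3.99e-13), -1.35 ± 0.09 for Kushen over Baituling (6.61e-11) and -0.59 ± 0.1 in CKI against Kushen (0.000127). LOX was measured at 59.9, 61.7 and 61.5 CPM in CKI, 59.1, 59.7 and 54.5 CPM in Kushen, and 120, 133 and 127 CPM in Baituling. Baituling was above both others, and CKI was above Kushen by a margin smaller than the spread of the Kushen libraries. LOX was called lower in CKI than in Baituling (-1.05 ± 0.05, edgeR adjusted p = 3.45e-13) and in Kushen than in Baituling (-1.13 ± 0.05, 1.92e-13), and both calls were lost with library totals (-0.77 and -0.92), the first also with the upper quartile (-0.98). Between CKI and Kushen LOX differed by 0.08 ± 0.05 (edgeR adjusted p = 0.242), which passed with library totals (0.15, 0.0296). LOXL2, the most abundant of the 3 per length, was measured at 497, 510 and 528 CPM in CKI, 652, 751 and 755 CPM in Kushen, and 781, 750 and 740 CPM in Baituling. CKI was lowest, and the others overlapped. LOXL2 had a log2 fold change of -0.49 ± 0.05 in CKI against Kushen (edgeR adjusted p = 4.34e-07), -0.57 ± 0.05 for CKI over Baituling (4.3e-09) and -0.07 ± 0.05 for Kushen over Baituling (0.189), the last turning to 0.14 (0.00734) with library totals.

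The 3 lysyl hydroxylases split into different orders of treatment. PLOD3, which also glycosylates hydroxylysine, was measured at 98.6, 99.1 and 102 CPM in CKI, 84.9, 99 and 103 CPM in Kushen, and 247, 230 and 230 CPM in Baituling. CKI and Kushen overlapped, and Baituling lay above both. PLOD3 was called lower in CKI than in Baituling (log2 fold change -1.24 ± 0.06, edgeR adjusted p = 1.81e-13) and in Kushen than in Baituling (-1.3 ± 0.06, 1.39e-13), and the first call was lost with library totals (-0.95). Between CKI and Kushen PLOD3 differed by 0.07 ± 0.06 (edgeR adjusted p = 0.386), which passed with library totals (0.14, 0.0338). PLOD2, which hydroxylates the collagen telopeptides, went the other way: it was measured at 179, 175 and 180 CPM in CKI, 158, 157 and 146 CPM in Kushen, and 137, 136 and 136 CPM in Baituling. The groups did not overlap, with CKI highest. PLOD2 had a log2 fold change of 0.21 ± 0.04 in CKI against Kushen (edgeR adjusted p = 0.000494), 0.38 ± 0.04 for CKI over Baituling (8.26e-08) and 0.17 ± 0.04 for Kushen over Baituling (0.00112), the last of which turned to -0.02 with the length and GC correction. PLOD1, which hydroxylates helical lysines, was measured at 209, 221 and 234 CPM in CKI, 248, 278 and 284 CPM in Kushen, and 351, 339 and 338 CPM in Baituling, with CKI lowest, Baituling highest and no overlap. It differed by -0.29 ± 0.05 in CKI against Kushen (0.000216), -0.63 ± 0.05 for CKI over Baituling (1.22e-09) and -0.35 ± 0.05 for Kushen over Baituling (6.67e-06).

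Among the integrin alpha subunits, the laminin-binding ITGA3 and ITGA6 both differed among the treatments but not in the same order. ITGA6 was measured at 254, 250 and 255 CPM in CKI, 326, 343 and 327 CPM in Kushen, and 597, 639 and 635 CPM in Baituling. CKI was lowest and Baituling highest, with no overlap. ITGA6 was called lower in CKI than in Baituling (log2 fold change -1.3 ± 0.04, edgeR adjusted p = 7.7e-16), and was lower in Kushen than in Baituling (-0.91 ± 0.04, 2.15e-13; -1.03 with the length and GC correction) and in CKI than in Kushen (-0.39 ± 0.04, 5.76e-07). ITGA3 was measured at 2196, 2245 and 2324 CPM in CKI, 3620, 4052 and 4095 CPM in Kushen, and 2697, 2643 and 2621 CPM in Baituling. Kushen was above Baituling and Baituling above CKI, again with no overlap. ITGA3 had a log2 fold change of -0.8 ± 0.05 in CKI against Kushen (edgeR adjusted p = 1.54e-10) and 0.56 ± 0.04 in Kushen against Baituling (1.06e-09), and in CKI against Baituling it was -0.23 ± 0.04 (9.88e-05) with TMM but 0.05 with library totals.

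The collagen-binding ITGA2 and the ITGAV subunit, which binds vitronectin and other RGD proteins, were lower in Baituling than in both other groups. ITGA2 was measured at 433, 436 and 420 CPM in CKI, 447, 461 and 437 CPM in Kushen, and 239, 263 and 256 CPM in Baituling. All Baituling libraries were far below the others, and CKI was just below Kushen. ITGA2 had a log2 fold change of 0.77 ± 0.04 for CKI over Baituling (edgeR adjusted p = 4.42e-12) and 0.83 ± 0.04 for Kushen over Baituling (1.96e-12), under the fold threshold with TMM and above it with library totals (1.05 and 1.04). ITGAV was measured at 168, 163 and 170 CPM in CKI, 163, 171 and 161 CPM in Kushen, and 103, 108 and 108 CPM in Baituling. CKI and Kushen overlapped, and both were above Baituling, by 0.65 ± 0.04 (edgeR adjusted p = 4.23e-11) and 0.64 ± 0.04 (8.68e-11) on the log2 scale. ITGA5, the fibronectin receptor subunit, was measured at 255, 266 and 269 CPM in CKI, 231, 243 and 250 CPM in Kushen, and 278, 285 and 275 CPM in Baituling. Kushen was lowest and Baituling highest, without overlap. It was lower in Kushen than in Baituling (-0.21 ± 0.04, edgeR adjusted p = 0.000171; 0 with library totals). CKI exceeded Kushen by 0.13 ± 0.04 (0.0219), but the adjusted p rose to 0.0815 without CKI library 2, 0.0854 without CKI library 3 and 0.0829 without Kushen library 1. CKI and Baituling differed by -0.08 ± 0.04 (0.0734), a value that passed with RLE size factors (-0.1, 0.038), by DESeq2 (-0.1, 0.0328) and in the fit of these groups alone (-0.08, 0.0455), and that turned to 0.2 (7.58e-05) with library totals.

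The beta subunits included ITGB4, the partner of ITGA6 in hemidesmosomes, and ITGB3 and ITGB5, partners of ITGAV. ITGB4 was measured at 102, 104 and 104 CPM in CKI, 157, 182 and 195 CPM in Kushen, and 289, 289 and 293 CPM in Baituling. No groups overlapped, with CKI lowest and Baituling highest. ITGB4 had a log2 fold change of -0.78 ± 0.06 in CKI against Kushen (edgeR adjusted p = 6.22e-09), -1.49 ± 0.06 for CKI over Baituling (1.5e-14) and -0.7 ± 0.06 for Kushen over Baituling (1.1e-09). ITGB3 was measured at 11, 11 and 12.4 CPM in CKI, 11.7, 10.1 and 11.7 CPM in Kushen, and 4.34, 4.99 and 3.81 CPM in Baituling. CKI and Kushen overlapped, and both were above Baituling. ITGB3 was called higher in CKI than in Baituling (1.39 ± 0.12, edgeR adjusted p = 1.67e-09) and in Kushen than in Baituling (1.35 ± 0.12, 4.04e-09). Between CKI and Kushen ITGB3 differed by 0.04 ± 0.1 (edgeR adjusted p = 0.743). ITGB5 was measured at 256, 251 and 281 CPM in CKI, 290, 317 and 335 CPM in Kushen, and 438, 425 and 419 CPM in Baituling, the opposite order to ITGB3. It was lower in CKI than in Kushen (-0.26 ± 0.05, edgeR adjusted p = 0.000661), in CKI than in Baituling (-0.7 ± 0.05, 2.81e-10) and in Kushen than in Baituling (-0.45 ± 0.05, 2.53e-07). ITGB1, the common partner of most of these alpha subunits, was measured at 1143, 1111 and 1131 CPM in CKI, 1464, 1489 and 1426 CPM in Kushen, and 1256, 1348 and 1313 CPM in Baituling. Kushen was highest and CKI lowest. ITGB1 had a log2 fold change of -0.37 ± 0.04 in CKI against Kushen (edgeR adjusted p = 5.67e-07). It was -0.21 ± 0.04 for CKI over Baituling (6.99e-05) but 0.08 with library totals, and 0.16 ± 0.04 for Kushen over Baituling (0.00106) but -0.05 with the length and GC correction.

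By mean CPM on the TMM scale, 18 of the 40 tested members followed the order Baituling, Kushen, CKI from highest to lowest (45%, compared with 25.7% of all genes tested). For 14 of them all 3 contrasts had an adjusted p under 0.05, a share that was not counted over all genes. With library totals COL4A1, COL12A1, AGRN and LOXL2, all in this order, were instead higher in Kushen than in Baituling, by log2 fold changes of 0.14, 0.08, 0.19 and 0.14. The orders and overlaps were not counted with library totals. The order Kushen, Baituling, CKI was found for 5 members, HSPG2, FBN1, LAMC1, ITGA3 and ITGB1 (12.5%, compared with 5.76% of all genes). Of these, 3 passed the adjusted p in all 3 contrasts. In 9 members (22.5%, compared with 16.5% of all genes) Kushen was lowest and Baituling highest. None of these 9 passed the adjusted p in all 3 contrasts. The step between CKI and Kushen was as small as 0 ± 0.05 for COL6A1 (edgeR adjusted p = 0.962). CKI was highest and Baituling lowest in 4 members (10%), where 28.4% of all genes had that order, and Kushen was highest and Baituling lowest in 4 (10%), where 17.2% of all genes did. In each of these orders 1 member passed the adjusted p in all 3 contrasts. CKI and Kushen libraries did not overlap for 29 members, 4 higher and 25 lower, compared with 49.5% of all genes, 25.2% higher and 24.2% lower. Against Baituling the CKI libraries did not overlap for 39 members, 8 higher and 31 lower, where 78.3% of all genes did not (40.3% higher and 38% lower). Kushen and Baituling libraries were apart for 35 members, 12 higher and 23 lower, where 73.1% of all genes were (36.4% higher and 36.7% lower).

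Ratios between partner genes within a library need no scaling between libraries. For 11 pairs, chosen after the values were seen, the ratio of counts was compared in 33 comparisons by a two-sided exact permutation test, which cannot go below p = 0.1 with 3 libraries against 3 and gave adjusted values of 0.118 or more. The ratio of COL4A2 to COL4A1 was 2.96 ± 0.0765 for CKI, 3.41 ± 0.149 for Kushen and 4.44 ± 0.192 for Baituling (mean ± SD, n = 3), with no overlap between groups. COL6A3 to COL6A1 rose in the same order, at 0.436 ± 0.0103, 0.523 ± 0.0269 and 0.745 ± 0.0568, while COL6A2 to COL6A1 was 0.559 ± 0.0315, 0.521 ± 0.00837 and 0.615 ± 0.0341 and overlapped in the comparisons with CKI. LAMB1 to LAMC1 was 0.139 ± 0.00211 under CKI, 0.105 ± 0.00771 under Kushen and 0.257 ± 0.00508 under Baituling.

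Among the enzymes, PLOD3 to PLOD2 was 0.562 ± 0.00968 in CKI and 0.624 ± 0.0836 in Kushen, which overlapped, and 1.73 ± 0.0666 in Baituling. LOX to LOXL2 was lowest in Kushen, at 0.0808 ± 0.00929, compared with 0.119 ± 0.00254 in CKI and 0.167 ± 0.0127 in Baituling. Among the integrins, ITGA6 to ITGA3 was 0.112 ± 0.00297 under CKI, 0.0849 ± 0.00509 under Kushen and 0.235 ± 0.012 under Baituling. ITGA6 to its partner ITGB4 was 2.44 ± 0.0449, 1.88 ± 0.199 and 2.15 ± 0.0758. Against Baituling it moved much less than ITGA6 to ITGA3, by log2 differences of 0.18 in CKI and -0.2 in Kushen compared with -1.07 and -1.47. In CKI against Kushen the 2 ratios moved alike, by 0.38 and 0.4. The ratio of ITGB3 to ITGB5, the alternative partners of ITGAV, was 0.0437 ± 0.000692 under CKI, 0.0357 ± 0.00429 under Kushen and 0.0102 ± 0.00136 under Baituling, and ITGAV to ITGA5 was 0.635 ± 0.0224, 0.685 ± 0.0348 and 0.38 ± 0.0107. ITGA5 to ITGB1 was lowest in Kushen, at 0.165 ± 0.00908, against 0.233 ± 0.00865 in CKI and 0.214 ± 0.00634 in Baituling.

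**Figure D4:**
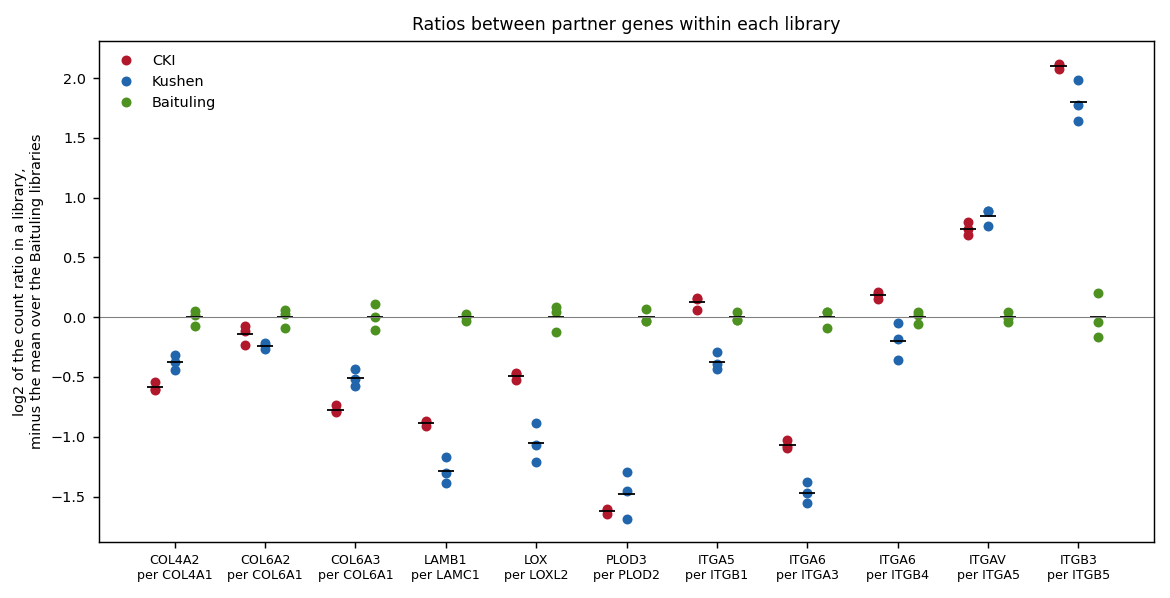
Ratio of counts between 11 pairs of partner genes in each library (points), on a log2 scale relative to the mean over the 3 Baituling libraries, with the mean of each treatment (line). ITGB3 per ITGB5 is higher in CKI and Kushen by 2.1 and 1.8, and PLOD3 per PLOD2 is lower by 1.62 and 1.48. ITGA6 per ITGB4 differs from Baituling by 0.18 in CKI and -0.2 in Kushen.

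A further 185 genes of the matrix and adhesion pathway were followed in 7 lists, and 133 of them were tested. Between CKI and Kushen 4 were called higher and 1 lower, where 1.7% and 0.197% of all genes were. Between CKI and Baituling 19 were called higher and 18 lower, against 11.2% and 7.91% of all genes. With library totals these were 30 and 13, where 3157 of all 14195 genes were called, 2527 of them higher. Between Kushen and Baituling 17 were called higher and 13 lower, against 8.5% and 6.73% of all genes. With library totals these were 22 and 7, where 2431 of all 14195 genes were called, 1813 of them higher. Of the 133 genes, 18 had a library under the filter level of 0.431 CPM of the unscaled total, so they passed only through the groups or libraries where they are high. They include COL3A1, called higher in CKI than in Kushen, and THBS4, the 1 called lower there. Counts of calls that hold such genes are therefore a description. The median log2 fold changes over the 133 were -0.08, -0.11 and -0.03. Among 16 tested further collagens, 8 were called higher and 2 called lower in CKI than in Baituling, where 11.2% and 7.91% of all genes were, many of them at low levels. Of the 16, COL3A1, COL11A1, COL20A1 and COL24A1 reached the filter level in no Baituling library, so these counts are a description. The median log2 fold change of the 16 in this contrast was 1 (12 higher and 4 lower), where that of the 40 tested members was -0.63. COL3A1, a fibrillar collagen, was the largest rise, at 0.835 ± 0.269 CPM (mean ± SD, n = 3) under CKI, 0.127 ± 0.048 under Kushen and 0.0347 ± 0.0302 under Baituling, where a library had no count. It had 22, 27 and 14 counts under CKI, 3, 2 and 4 under Kushen and 1, 0 and 1 under Baituling. Since it passed the filter only through CKI, where it is high, these values are a description. COL9A3 was the largest fall in CKI against Baituling (-1.1 ± 0.33, edgeR adjusted p = 0.00557), at 0.554 ± 0.154 against 1.18 ± 0.287 CPM. In Kushen against Baituling 4 further collagens were called, all higher, against 8.5% of all genes. They were led by COL11A1 at 0.537 ± 0.202 against 0.0715 ± 0.0851 CPM, a gene with 0 to 3 counts in the Baituling libraries. It passed the filter only through CKI and Kushen libraries, where it is high, so these values are a description. COL1A1, COL1A2, COL3A1 and LUM are also among the 6 fibroblast markers, whose summed level was highest under CKI and lowest under Baituling. Most of that sum was COL1A1, at 35.6, 22.7 and 16.3 CPM in CKI, Kushen and Baituling. COL3A1 and LUM had the same order, while COL1A2 had the opposite order, at 2.22, 3.28 and 4.57 CPM. The part of the fibroblast list in these counts was not tested.

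Of 13 tested further laminins and basement membrane genes, 3 were called in each contrast with Baituling, all higher. Of all genes, 11.2% were called higher in CKI and 8.5% in Kushen. LAMA1, an alpha chain of embryonic basement membranes, led in all 3 contrasts: it was 3.43 ± 0.433 CPM under CKI, 1.35 ± 0.263 under Kushen and 0.317 ± 0.165 under Baituling, with 3 to 9 counts per Baituling library. LAMA1 was higher in CKI than in Kushen (1.34 ± 0.21, edgeR adjusted p = 5.83e-05). Its log2 fold change against Baituling was 3.41 ± 0.3 in CKI and 2.07 ± 0.35 in Kushen. It was above the filter level in 3 CKI, 3 Kushen and 1 Baituling library, so it passed through the groups where it is high. The values of LAMA1 against Baituling are therefore a description. Of 23 tested genes of collagen folding and processing, 3 were called lower in CKI than in Baituling, against 7.91% of all genes. In Kushen 2 were called lower and 1 higher, against 6.73% and 8.5% of all genes. The largest fall was that of LOXL4, another lysyl oxidase, at 24.7 ± 0.517 CPM under CKI, 38.8 ± 2.16 under Kushen and 102 ± 2.75 under Baituling (log2 fold change -2.04 ± 0.05 and -1.39 ± 0.05 against Baituling, edgeR adjusted p = 5.1e-17 and 9.75e-15). ADAMTS3, a procollagen N-proteinase, was the gene that was higher in Kushen than in Baituling (1.3 ± 0.19, 5.09e-06).

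Of 10 further integrins tested, 3 were called higher in CKI and 3 in Kushen than in Baituling, against 11.2% and 8.5% of all genes. ITGA7, a laminin receptor subunit, was the largest rise in both contrasts, at 5.09 ± 0.23 CPM under CKI, 5.11 ± 0.205 under Kushen and 1.14 ± 0.234 under Baituling (2.15 ± 0.17 and 2.16 ± 0.17, edgeR adjusted p = 8.72e-10 and 1.19e-09). Of 29 tested integrin adaptors, 5 were called lower in CKI and 4 in Kushen than in Baituling, against 7.91% and 6.73% of all genes. TGFB1I1, the paxillin relative Hic-5, was the largest fall in CKI, at 13 ± 0.748 against 66.6 ± 1.16 CPM (-2.36 ± 0.06, edgeR adjusted p = 5.14e-17). FERMT1, or kindlin 1, was the largest fall in Kushen, at 4.18 ± 0.563 against 15.6 ± 0.958 CPM (-1.9 ± 0.11, 7.8e-12).

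The matrix receptors SDC1, a syndecan, and BCAM, a laminin-binding protein, led the falls among 9 other receptors: SDC1 was 73 ± 2.8 CPM in CKI against 223 ± 9.6 in Baituling (-1.61 ± 0.06, edgeR adjusted p = 2.44e-15), and BCAM was 16.4 ± 1.43 CPM in Kushen against 51.2 ± 1.16 (-1.64 ± 0.07, 1.66e-13). Among 33 tested further glycoproteins and proteoglycans, TNC, or tenascin C, was the largest fall against Baituling, at 19.4 ± 0.359 CPM under CKI, 27.8 ± 0.882 under Kushen and 139 ± 2.85 under Baituling (-2.84 ± 0.05 and -2.32 ± 0.05, edgeR adjusted p = 3.76e-19 and 5.93e-18). BCAN, the proteoglycan brevican, was the largest rise, at 0.885 ± 0.224 CPM in CKI and 1.27 ± 0.241 in Kushen against 0.0366 ± 0.0633 in Baituling, where its lowest count was 0, so that its fitted fold depends on the prior count. It passed the filter only through CKI and Kushen, where it is high, so these values are a description. In CKI against Kushen, SPP1, or osteopontin, was higher (2.47 ± 0.113 against 1.03 ± 0.419 CPM, 1.24 ± 0.3, edgeR adjusted p = 0.00285). THBS4 was 0.238 ± 0.138 against 0.789 ± 0.155 CPM, with 8, 8 and 2 counts under CKI, 23, 20 and 14 under Kushen and 6, 6 and 5 under Baituling, and it passed the filter only through Kushen, where it is high, so these values are a description.

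The libraries carry no strand, so where genes overlap on opposite strands their reads cannot be told apart. By the GENCODE annotation, exons of 12 of the 42 members overlap those of a gene on the other strand that is also in the count table. The partners with many counts were ADRM1 at LAMA5 (4296 to 6022 counts per library), DLD at LAMB1 (1827 to 2594), ZNHIT1 at PLOD3 (1243 to 1689), SRFBP1 at LOX (293 to 484) and LOXL1-AS1 at LOXL1. LOXL1-AS1, antisense to LOXL1, had 115 to 130 counts with CKI, 137 to 171 with Kushen and 277 to 325 with Baituling, the same order of groups as LOXL1 itself.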

How the data were processed

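Paired-end RNA libraries of MDA-MB-231 cells were trimmed with Trim Galore 0.3.7 and aligned with STAR 2.5.3a to hg19, per the labels. The authors deposited raw counts per gene without normalization; the counting program and annotation are not given in the sources used here. The table has 24566 rows, of which 222 repeated an Ensembl gene. Symbols and positions came from GENCODE on GRCh37, the same assembly as hg19. Total counts lay between 22830700 and 23556823 (CKI), 22023427 and 23782071 (Kushen), and 20144628 and 23367960 (Baituling), so counting error is large only for scarce genes. The filterByExpr function (minimum count 10, minimum total 15) of edgeR 4.0.16 in R 4.3.3 kept 14195 genes. A single quasi-likelihood fit (glmQLFit, glmQLFTest) over all 9 libraries had group as its only term, TMM scaling (factors 0.877 to 1.099) and two-sided Benjamini-Hochberg adjusted p-values, and was tested on simulated data. Standard errors were derived from the log2 fold change and the F statistic. Alternatives were other scalings and filters, a replicate block, a length and GC correction, glmTreat, DESeq2 1.42.0, fits of 2 groups and leaving out each library. The canonical transcript length, the replicate block for the pathway lists and the alternatives for members outside the naming rule were chosen after seeing the data. Replicate pairs differed by a chi-square of 1.70 to 6.85 per gene, so none was a library deposited again. Members and lists were chosen with earlier results of these data known. Values in every library are given for members called in a contrast and for usual binding partners. They are also given for the members with the largest and smallest log2 fold change of each role, and the other members are given by range. Statistics of all 3 contrasts are given for the called members. From each pathway list and contrast the text names the largest rise and the largest fall among called genes.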

Additional observations from a re-analysis of the deposited data

How the results depend on the processing

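The numbers of members called and of members past the adjusted p, both directions together, were within 1.5 times of the reported ones under the alternatives run, except that glmTreat, which tests against the fold threshold itself, called 9 members between CKI and Baituling and 7 between Kushen and Baituling. Of all 14195 genes it called 1515 and 1029 in these contrasts. Deviations from the group means correlated by -0.07 to 0.12 between same-numbered libraries of different treatments and by -0.15 to 0.18 between the others. Such correlations over 9 libraries cannot decide whether the numbers pair the samples. With the replicate block 0, 14 and 12 members were called, where 269, 2713 and 2158 of all 14195 genes were. An adjusted p under 0.05 was found for 24, 37 and 36 members. By direction, library totals moved the members past the adjusted p and higher in CKI from 2 to 6 against Kushen (4 with the length and GC correction) and from 7 to 12 against Baituling, and those called lower in CKI than in Baituling from 11 to 7. Over all genes, those called higher in CKI than in Baituling moved from 1592 to 2527. The numbers of all genes past the adjusted p were not counted under the alternatives. Directions turned for small differences. In CKI against Kushen, library totals gave 0.04 for COL12A1 and 0.01 for ITGA2, and COL6A1 was -0.01 with RLE size factors and with DESeq2 and 0 without a filter. In CKI against Baituling, library totals gave 0.11 for COL4A1, 0.12 for COL12A1, 0.12 for LAMB3, 0.27 for LAMC1, 0.05 for ITGA3, 0.2 for ITGA5 and 0.08 for ITGB1, and LAMC1 was 0.05 with the upper quartile and 0.02 with at least 10 counts in every library. In Kushen against Baituling, library totals gave 0.14 for COL4A1, 0.08 for COL12A1, 0.03 for LAMB3, 0.19 for AGRN, 0.14 for LOXL2 and 0 for ITGA5, and AGRN was 0.05 with the upper quartile and 0.01 with at least 10 counts in every library. With the length and GC correction, with and without the replicate block, AGRN was 0.13, LOXL2 0.01, PLOD2 -0.02 and ITGB1 -0.05. The cause was not tested.

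Leaving out a library turned small differences that had not passed the test. The range in CKI against Kushen was -0.05 to 0.06 for COL6A1, 0 to 0.16 for SPARC, -0.14 to 0.17 for COL5A2, -0.24 to 0.07 for COL7A1, -0.02 to 0.08 for ITGB3, -0.01 to 0.11 for PLOD3, -0.03 to 0.04 for LAMB3 and -0.01 to 0.04 for ITGAV. It was -0.06 to 0.02 for LAMC1 in CKI against Baituling, and -0.1 to 0.06 for AGRN and -0.03 to 0.14 for HSPG2 in Kushen against Baituling. The filter of at least 10 counts in every library called 102 of all genes in CKI against Kushen, compared with 270. Depth limits COL5A2, LAMA4 and SPARC, with under 100 counts per library, and leaves NID1 and BGN untested.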
